A study of Picromerus lewisi with 6 samples.

Results

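The mitochondrial genome transcripts of Picromerus lewisi, a predatory stink bug, were 34 of the 22242 transcript clusters measured in its venom glands. A cluster was a member if its best nucleotide match was a sequence of this species described as mitochondrial or as cytochrome, so expression values did not choose the members. The study profiled RNA of venom glands, the organs that make the saliva injected into insect prey, in 2 groups with 3 libraries each. The groups were glands of adults and glands of nymphs of instar 5, the last stage before the adult, and the labels name no strain, treatment or sex. No label tells if the libraries of a stage stem from different animals or from pools, and p-values here therefore reflect the spread among 3 libraries that may differ only technically. Values of a stage are listed in the order of its replicates 1, 2 and 3.

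The insect mitochondrial genome is a small circular DNA that encodes core subunits of the respiratory chain and the RNAs of the mitochondrial ribosome. NADH dehydrogenase subunits (ND genes) belong to complex I, cytochrome b (CYTB) to complex III, cytochrome c oxidase subunits (COX genes) to complex IV and ATP6 to the ATP synthase. In animals its genes are transcribed as long precursors that are cut, often at transfer RNAs, into mature messages, and most of the other respiratory chain subunits come from nuclear genes.

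From 13905443 to 18552285 fragments per library were recovered in adult glands and from 14451960 to 19070713 in nymph glands. Adult replicate 2 stood apart, with 18155 clusters at an FPKM of 1 or more, against 4927 and 8679 in the other adult libraries and 10862 to 14040 in nymph glands. FPKM counts fragments relative to the length of a cluster and the size of its library. Clusters matching venom gland products (serine proteases, redulysins and proteins named venom) took 2.60%, 22.6% and 6.53% of fragments in adult glands, and 4.79%, 9.01% and 3.65% in nymph glands. Muscle clusters took 0.0144% to 0.0564% of fragments in adult glands and 0.0877% to 0.126% in nymph glands, with 14 to 25 of the 48 clusters listed at 0 in adult glands and 11 to 22 in nymph glands. Their summed FPKM was 127, 278 and 521 in adult glands and 543, 675 and 985 in nymph glands, and its part in the mitochondrial values was not tested. In bulk glands, fewer cells of a type and less RNA per cell cannot be told apart.

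The label held for most members and not for all. In 26 of the 34 clusters the score of the nucleotide match was at least 91.7% of the cluster's length, so nearly the whole cluster matched the bug's mitochondrial genome. In the other 8 it was at most 24.6%, with scores of 53 to 101, and their FPKM was at most 14.09 in any library. Those 8 are members by the rule but only a short stretch of each matched. Cluster-4138.1, for example, had the nuclear gene SMYD4 as its protein match. Best matches were split over records of the species, with 20 clusters on one mitochondrial genome record, 13 on a second and 1 on a COX1 barcode record.

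**Figure D1:**
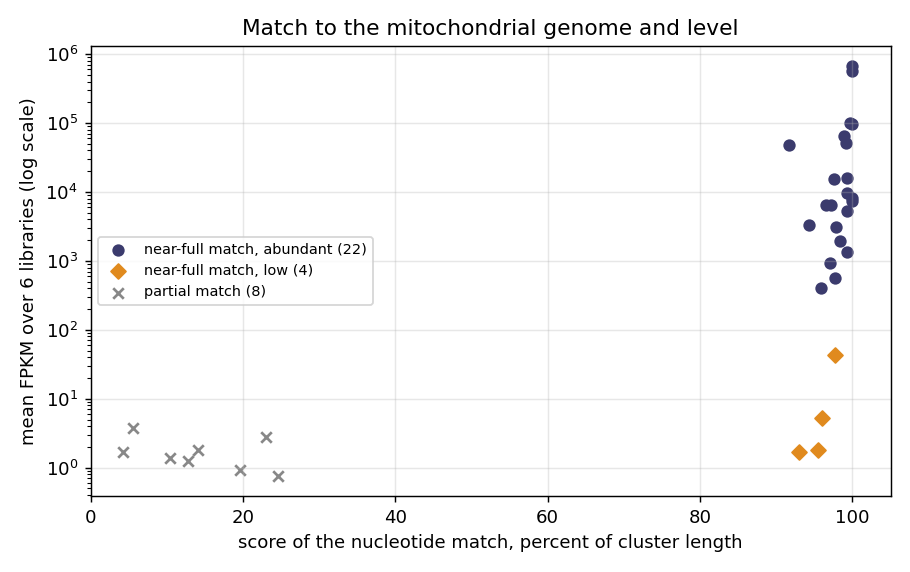
Each point is 1 of the 34 clusters, with the score of its nucleotide match as a percent of cluster length on the horizontal axis and its mean FPKM over the 6 libraries on a log vertical axis. The 22 abundant clusters and 4 low clusters lie at 91.7% or more, and the 8 partial matches lie at 24.6% or less with low FPKM.

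Of the 26 clusters with a nearly full match, 22 had an FPKM of 10 or more in every library, a limit chosen after the values were seen. These 22 abundant clusters were short, 19 of them under 600 bases, against a median of 589.5 bases over all clusters. By their annotation they carried COX1 (4 clusters), COX2 (3), ND5 (4), ND1, ND2 and ND4 (2 each), CYTB (1), ATP6 (1) and no gene name (3). None of the 34 had ATP8, ND3, ND4L or ND6 as its best match. For clusters matching a mitochondrial genome record the gene name came from protein matches. A ribosomal RNA among them would therefore stay without a gene name, so its absence cannot be read from the names. The longest cluster, Cluster-9520.4371 of 7909 bases, had protein domains from 6 mitochondrial genes (ATP6, COX3, ND3, ND5, ND6 and CYTB) beside some unrelated domains. It is counted under ND5, its best protein match. Whether other clusters carry more than 1 gene was not examined. Several clusters can be pieces or copies of the same gene, and the sources used here do not give how reads were shared among them.

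The highest level belonged to clusters with no gene name. Cluster-9520.4356, of 458 bases, had 946409, 117387 and 1092125 FPKM in adult glands, and 987168, 318513 and 514857 FPKM in nymph glands. Cluster-9520.4352, of 421 bases, had 893756, 92759.9 and 876757 FPKM in adult glands, against 664705, 314668 and 623119.8 FPKM in nymph glands. Both were lowest in adult replicate 2, and the stages overlapped. Both had a protein match only to a hypothetical protein of another bug, which does not say which part of the mitochondrial genome they come from. The third unnamed abundant cluster, Cluster-9520.4392 of 1768 bases, was far lower, at 1066, 86.2 and 386 FPKM in adult glands and 632, 48.7 and 212 FPKM in nymph glands.

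In FPKM, complex IV led the named genes. In mean share of fragments, which is not divided by length, the long Cluster-9520.4371 led with 12.1%. The leading COX1 cluster had 5.68% and the leading COX2 cluster 0.371%. COX1, the catalytic subunit of cytochrome c oxidase, was highest in Cluster-9520.4335 (844 bases), at 171185, 21751 and 144509 FPKM in adult glands and 83474, 70010.1 and 108021 FPKM in nymph glands. Cluster-9520.4346, also COX1, had 179059, 21538 and 139141 FPKM in adult glands, against 75977, 63495 and 103718 FPKM in nymph glands. The next COX1 cluster, Cluster-9520.4355, had 101828, 18006 and 88623 FPKM in adult glands and 74680.1, 39454 and 60531 FPKM in nymph glands. In all 3, adult replicates 1 and 3 lay above every nymph library and adult replicate 2 lay below every nymph library. The remaining COX1 cluster, Cluster-9520.4421, was lower, between 176 and 2142 FPKM in adult glands and between 827 and 2176 FPKM in nymph glands.

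COX2, the subunit that takes electrons from cytochrome c, was highest in Cluster-9520.4394, at 82597, 9326 and 67618 FPKM in adult glands and 52816, 36829 and 58989 FPKM in nymph glands. A further COX2 cluster, Cluster-9520.4383, had 99881, 11737 and 59146 FPKM in adult glands, against 64809.5, 18775 and 37033 FPKM in nymph glands. The stages overlapped in both, with adult replicate 2 lowest. COX3, a core subunit without redox centres, had a cluster of its own, Cluster-9520.4276 of 305 bases, at only 2.94, 3.34 and 2.61 FPKM in adult glands and 3.72, 0 and 18.55 FPKM in nymph glands. Since a COX3 domain also lay in the long Cluster-9520.4371, this low value is not the level of the COX3 gene.

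Among complex I genes the long Cluster-9520.4371 had the highest mean, at 26042, 3963 and 22685 FPKM in adult glands and 16733, 9286 and 16252 FPKM in nymph glands. ND1, a membrane subunit near the quinone site, had the clusters Cluster-9520.4391 and Cluster-9520.4464. Cluster-9520.4391 had 7620.35, 2367 and 11526 FPKM in adult glands, against 23312, 4525 and 8459 FPKM in nymph glands. Cluster-9520.4464 had 18513, 1674 and 14735 FPKM in adult glands, against 4889.7, 2153 and 7003 FPKM in nymph glands. In nymph replicate 1, Cluster-9520.4391 was above the long cluster. The ND1 clusters thus peaked in different libraries, nymph replicate 1 for Cluster-9520.4391 and adult replicate 1 for Cluster-9520.4464.

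ND2 and ND4 are subunits of the proton-pumping membrane arm. For ND2, Cluster-9520.4388 had 10446, 999 and 9353 FPKM in adult glands, against 3147.5, 1989 and 5733 FPKM in nymph glands. The second ND2 cluster, Cluster-9520.4429, had 6934, 809 and 6232 FPKM in adult glands, against 2289, 610.5 and 1967 FPKM in nymph glands. In both, adult replicates 1 and 3 were above every nymph library while adult replicate 2 was not. For ND4, Cluster-9520.4282 had 15899, 728 and 5421 FPKM in adult glands and 5381, 3888 and 7569 FPKM in nymph glands. The other ND4 cluster, Cluster-9520.4213, ranged between 299 and 6057 FPKM in adult glands and between 289.6 and 1726 FPKM in nymph glands.

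CYTB, the core of complex III, was represented by Cluster-9520.4373, at 7807, 647 and 2129.96 FPKM in adult glands and 3251, 2482 and 3740.1 FPKM in nymph glands. ATP6, the proton channel subunit of the ATP synthase, was highest in Cluster-9520.4442, at 12358, 1206 and 7040.4 FPKM in adult glands and 5283, 3605 and 9626 FPKM in nymph glands. The other abundant clusters, Cluster-9520.4325 (COX2) and Cluster-9520.4212, Cluster-9520.4357 and Cluster-9520.4363 (all ND5), overlapped between stages as well. Low despite a nearly full match, beside the COX3 cluster, were Cluster-6813.0, at up to 69.75 FPKM in adult glands and 142.5 FPKM in nymph glands, the ATP6 cluster Cluster-9520.4330, at most 3.44 FPKM, and Cluster-9520.4215, at most 6.74 FPKM. Of all 34, 23 were above 0 in every library and 11 were listed at 0 in at least 1.

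**Figure D2:**
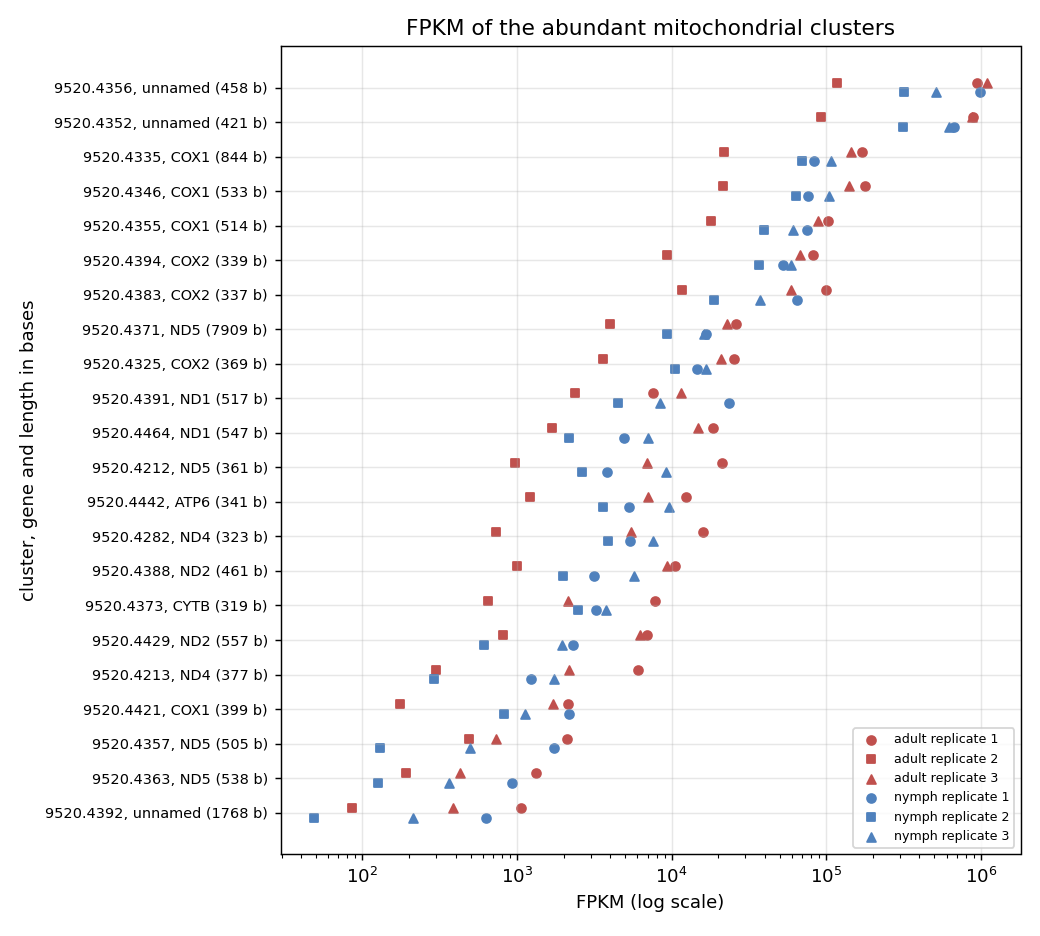
FPKM of the 22 abundant clusters (log horizontal axis), one row per cluster with its gene and length, with adult libraries in red and nymph libraries in blue and a marker shape per replicate. Cluster-9520.4356 and Cluster-9520.4352 lie highest, and adult replicate 2 lies lowest in the upper rows.

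The order of the clusters changed little between libraries, while their common level changed much. Across the 22 abundant clusters, Spearman's rho between pairs of libraries ran from 0.941 to 0.989 over the 15 pairs, with a median of 0.963, given as a description because the clusters share each library and its scaling. Between its lowest and its highest library, the FPKM of a cluster differed by 5.66-fold (Cluster-9520.4355) to 22.0-fold (Cluster-9520.4212). As a share of the members' summed FPKM, the same clusters differed by 1.31-fold (Cluster-9520.4352) to 10.9-fold (Cluster-9520.4357). The shares of Cluster-9520.4356 and Cluster-9520.4352 vary little partly by construction, because these clusters make up most of that sum.

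How much of each library was mitochondrial depended strongly on the unit. The 34 clusters took 84.5%, 18.6% and 74.3% of all FPKM in adult glands, and 71.2%, 52.7% and 70.0% in nymph glands. In mapped fragments, recovered from the steps of the FPKM, they took 67.4%, 10.1% and 65.8% in adult glands and 63.1%, 23.3% and 40.1% in nymph glands. The 95% Wilson interval of each fragment share is at most 0.0498 points wide and covers counting error only. The FPKM share was 59.2% ± 35.5 in adult glands and 64.7% ± 10.3 in nymph glands (SD, n = 3 each), which did not differ beyond the spread of the libraries (exact two-sided permutation p = 1.0). The fragment share was 47.8% ± 32.6 in adult glands and 42.2% ± 19.96 in nymph glands (exact two-sided permutation p = 0.8). With 3 against 3 libraries this test cannot give a p below 0.1. The difference in the FPKM share, adult minus nymph, was -5.49 points. It was -18.2, 14.8 and -13.1 points without adult replicates 1, 2 and 3, and -2.21, -11.5 and -2.81 points without nymph replicates 1, 2 and 3. Without adult replicate 2 the exact permutation p was 0.2, the smallest that 2 against 3 libraries allow, and for the other 5 it was 0.8 to 1.0.

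The fragment share also depends on what else fills the library. Cluster-9520.4848, of 10544 bases and with no match in any database of the table, took 21.4%, 8.02% and 0.00895% of fragments in adult glands, and 0.00209%, 41.7% and 38.0% in nymph glands. With it left out of the total, the mitochondrial share of fragments was 85.8%, 10.99% and 65.8% in adult glands and 63.1%, 40.1% and 64.7% in nymph glands. Adult replicate 2 was then still the lowest, and the other 5 libraries lay at 40.1% or above.

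The unit also decided which cluster appeared dominant. Together, Cluster-9520.4356 and Cluster-9520.4352 made up 69.7%, 67.6% and 76.3% of the members' FPKM in adult glands and 78.9%, 70.0% and 71.3% in nymph glands. Of the members' fragments they made up 41.9%, 41.3% and 49.1% in adult glands and 59.1%, 39.9% and 41.2% in nymph glands. The long Cluster-9520.4371 held 0.987%, 1.28% and 0.879% of the members' FPKM in adult glands and 0.799%, 1.03% and 1.02% in nymph glands. In fragments it held 29.5%, 30.03% and 26.4% in adult glands and 20.4%, 30.3% and 30.8% in nymph glands. FPKM here divides by the cluster length less an offset of 243 to 287 bases in adult libraries and 217 to 293 bases in nymph libraries, which leaves little length in the shortest clusters and raises their FPKM.

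**Figure D3:**
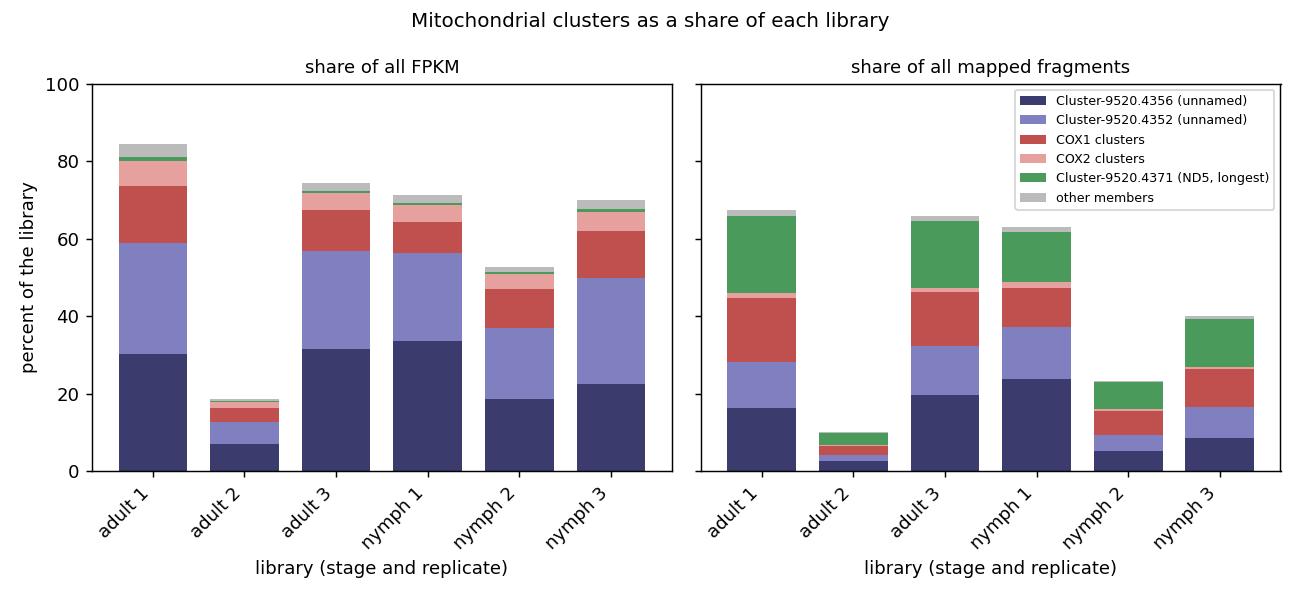
Share of each library, in percent, taken by the mitochondrial clusters, stacked by gene, with adult libraries left of nymph libraries; the left panel is in FPKM and the right panel in mapped fragments. Adult replicate 2 is lowest in both, at 18.6% and 10.1%, and the long Cluster-9520.4371 is a thin band in FPKM and a wide one in fragments.

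Set against the nuclear-encoded respiratory subunits, the mitochondrial clusters were in large excess in every library. Their summed FPKM was 3237, 81.8 and 597 times that of the 76 clusters for nuclear-encoded respiratory subunits in adult glands, and 723, 199.9 and 448 times in nymph glands. The stages overlapped (exact two-sided permutation p = 0.9), and the highest and lowest ratios were both in adult libraries. The effect of the length offset on summed FPKM described above applies to this ratio too, and in fragments it was 1610.3, 42.0 and 259 in adult glands and 346, 82.1 and 186 in nymph glands. Cluster-9520.4356 and Cluster-9520.4352, which carry no gene name, held 67.6% to 78.9% of the members' FPKM and 39.9% to 59.1% of their fragments. The ratio is therefore not one between mitochondrial and nuclear messages for respiratory subunits.

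Within the mitochondrial transcripts, ND2 was the gene whose share was higher in every adult library than in any nymph library. Summed over its clusters, ND2 made up 0.658%, 0.582% and 0.604% of the members' FPKM in adult glands, against 0.260%, 0.287% and 0.482% in nymph glands. This separation gives the smallest p the design allows (exact two-sided permutation p = 0.1) and did not pass adjustment over the 10 gene classes (Benjamini-Hochberg adjusted permutation p = 1.0). COX1 made up 17.2% ± 2.65 in adult glands and 15.9% ± 4.10 in nymph glands, and COX2 7.18% ± 1.26 in adult glands and 6.89% ± 0.518 in nymph glands (SD, n = 3 each). The shares of the other classes overlapped between stages as well, with exact permutation p of 0.4 to 1.0. ND2 also separated the stages in recovered fragments and without the 2 leading unnamed clusters, but in the same libraries. With exchangeable libraries each class would separate the stages in either direction with a probability of 0.1. By that measure, 1 of the 10 classes is no excess. Of all tested clusters, 3.67% separated over the members' total. That share is not a like baseline, because outside the members the ratio carries the swing of that total. With a library left out, separate groups stay separate by construction, so such a count can only stay or grow. Without adult replicate 3, 4 classes separated the stages (COX2, ND2 and ND5 higher and the unnamed class lower in adult glands), and without nymph replicate 1, 2 did (ND1 and ND2, both higher in adult glands). Of all tested clusters, 5.79% separated the stages over the members' total without adult replicate 3 and 6.2% without nymph replicate 1. These shares have the same limit, and with 2 against 3 exchangeable libraries the probability is 0.2.

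**Figure D4:**
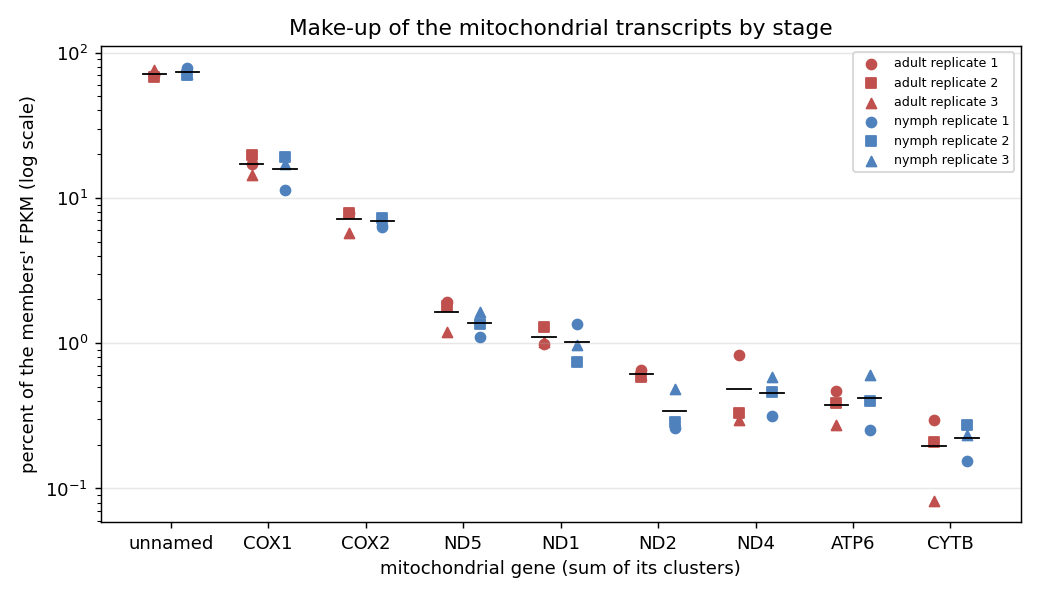
Share of the members' summed FPKM (percent, log axis) for each mitochondrial gene, with adult libraries in red left of nymph libraries in blue; black lines are means of 3 libraries, and COX3 is left out because its cluster was listed at 0 in a nymph library. The ND2 points of adult glands, 0.582% to 0.658%, lie above those of nymph glands, 0.260% to 0.482%.

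Single clusters gave a different picture from genes. Of the 22 abundant clusters, 2 had a share of the members' FPKM that did not overlap between stages, while 3.67% of all tested clusters did not overlap in FPKM over the members' total (1.29% higher and 2.38% lower in adult glands). Both were higher in adult glands, the ND1 cluster Cluster-9520.4464 at 0.604% ± 0.0860 in adult glands and 0.303% ± 0.117 in nymph glands, and the ND2 cluster Cluster-9520.4429 at 0.255% ± 0.0116 in adult glands and 0.10% ± 0.029 in nymph glands (SD, n = 3 each). Each had an exact permutation p of 0.1, and 0.88 after adjustment over the 22. The 3.67% is not a like baseline, because outside the members the ratio carries the swing of the members' total between libraries. If libraries were exchangeable, a cluster would separate the stages in either direction with a probability of 0.1. By that measure, 2 of the 22 is no excess. The other ND1 cluster and the leading ND2 cluster, Cluster-9520.4388, overlapped between stages, as did the ND1 share as a whole. With a library left out, 4 of the 22 separated without adult replicate 1, 2 or 3, beside 15%, 28.1% and 5.79% of all tested clusters. Without nymph replicates 1, 2 and 3 it was 6, 2 and 5 of the 22, beside 6.2%, 4.8% and 5.02% of all tested clusters. These shares of all tested clusters are not like baselines either, and with 2 against 3 exchangeable libraries the probability is 0.2.

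Ratios between genes within a library do not depend on how libraries are scaled. COX2 over COX1, taken between their leading clusters Cluster-9520.4394 and Cluster-9520.4335, was 0.482, 0.429 and 0.468 in adult glands and 0.633, 0.526 and 0.546 in nymph glands. Every adult library lay below every nymph library, with a difference of -0.30 on the log2 scale (exact two-sided permutation p = 0.1, adjusted over 8 ratios 0.8), beside 3.75% of all tested clusters that separated the stages in either direction over that COX1 cluster. That share is not a like baseline, because outside the members the ratio carries the swing of the COX1 cluster between libraries. With exchangeable libraries each ratio would separate the stages with a probability of 0.1. In recovered fragments per full length, and with a length-weighted mean over all clusters of a gene, COX2 over COX1 overlapped between stages and ND2 over COX1 separated them instead, higher in adult glands.

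The other ratios to COX1 overlapped between stages. ND5 (the long cluster) over COX1 varied least of these, at 0.152, 0.182 and 0.157 in adult glands and 0.20, 0.133 and 0.15 in nymph glands. COX3 over COX1 has no fold range, because the COX3 cluster was listed at 0 in nymph replicate 2. Among the ratios without COX3, ND1 over COX1 varied most, at 0.0445, 0.109 and 0.0798 in adult glands and 0.279, 0.0646 and 0.0783 in nymph glands, a 6.27-fold range. ND2 over COX1 was 0.0610, 0.0459 and 0.0647 in adult glands, against 0.0377, 0.0284 and 0.0531 in nymph glands. The leading unnamed cluster stood at 5.53, 5.40 and 7.56 times COX1 in adult glands and at 11.8, 4.55 and 4.77 times in nymph glands. Over COX1, ATP6 lay between 0.0487 and 0.0722 in adult glands and 0.0515 and 0.0891 in nymph glands, CYTB between 0.0147 and 0.0456 in adult glands and 0.0346 and 0.0389 in nymph glands, and ND4 between 0.0335 and 0.0929 in adult glands and 0.0555 and 0.0701 in nymph glands. With a library left out, some of these other ratios separated the stages. Without adult replicate 1, CYTB and ND4 over COX1 were lower in adult glands, beside 17.2% of all tested clusters that separated over that COX1 cluster. Without nymph replicate 1, ND5 and the unnamed cluster over COX1 were higher in adult glands, beside 6.49% of all tested clusters. ND2 over COX1 was higher in adult glands without adult replicate 2 or without nymph replicate 3, beside 29.2% and 5.62% of all tested clusters. These shares of all tested clusters are not like baselines either, since outside the members they carry the swing of the COX1 cluster.

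Clusters of the same gene did not hold a fixed ratio to each other. Over the 18 pairs of abundant clusters with the same gene name, the ratio within a library varied by 1.15-fold to 11.6-fold between libraries, with a median of 3.10-fold. The 213 other pairs varied by 1.19-fold to 20.1-fold, with a median of 3.82-fold. The same-name pairs include those of the long Cluster-9520.4371, which carries domains of further genes, with other ND5 clusters. Those pairs varied by 3.60-fold to 8.81-fold and are not strictly pairs of 1 gene. The steadiest pair was COX1, where Cluster-9520.4335 over Cluster-9520.4346 was 0.956, 1.01 and 1.04 in adult glands and 1.10, 1.10 and 1.04 in nymph glands. The least steady was ND1, where Cluster-9520.4391 over Cluster-9520.4464 was 0.412, 1.41 and 0.782 in adult glands and 4.77, 2.10 and 1.21 in nymph glands. For ND4, Cluster-9520.4282 over Cluster-9520.4213 was 2.62, 2.43 and 2.48 in adult glands and 4.39, 13.4 and 4.38 in nymph glands, without overlap. In all, 3 of the 18 pairs separated the stages, beside 36 of the 213 other pairs, and pairs that share a cluster are not independent. A stage difference in a single cluster is therefore not the same as one in its gene.

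**Figure D5:**
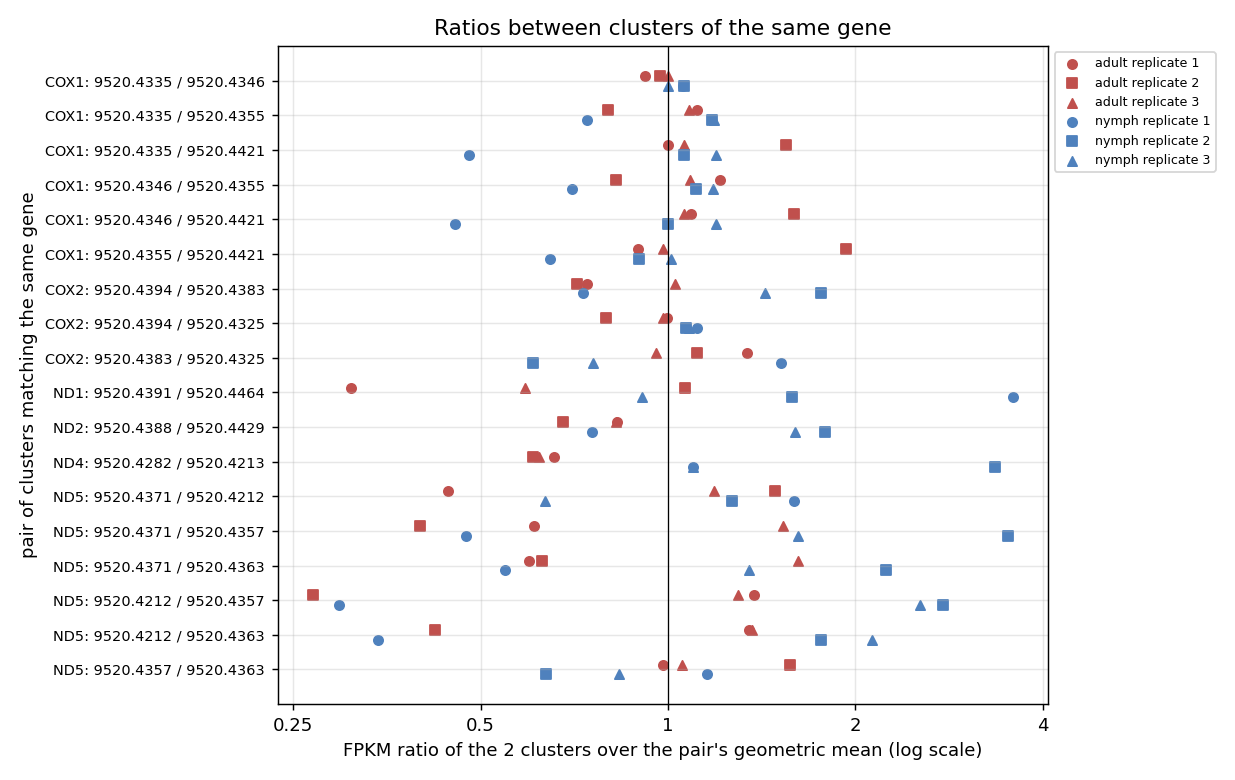
Ratio of FPKM between clusters of the same gene in each library, divided by the pair's geometric mean over the libraries (log horizontal axis), with adult libraries in red and nymph libraries in blue. The COX1 pair in the top row is tight, with a 1.15-fold range, and the ND1 pair spans 11.6-fold.

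In a comparison of stages over the whole table, no mitochondrial cluster passed the threshold, and the intervals were wide. Of the 34, 28 passed the filter on low values and 0 passed limma's test at an adjusted p of 0.05, beside 0.234% of the 11961 tested clusters (28 called). At an unadjusted p under 0.05, 0 of the 28 passed in limma, beside 9.05% of all tested clusters. The log2 fold change of Cluster-9520.4356 was 0.17 ± 1.47 SE, with a 95% interval of -3.09 to 3.43 (limma adjusted p = 0.976), so that large changes in either direction lie inside it. The largest positive value was that of the ND2 cluster Cluster-9520.4429, at 1.53 ± 1.25 SE with an interval of -1.24 to 4.31 (limma adjusted p = 0.763). The lowest was that of the partial match Cluster-4138.1, at -0.81 ± 0.82 SE (limma adjusted p = 0.796), which was listed at 0, 3.53 and 0 FPKM in adult glands and 0, 3.02 and 4.20 FPKM in nymph glands.

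The direction of the group as a whole depended on the scaling. With libraries rescaled by the median ratio, 20 of the 28 lay above 0 and 8 below, with a median of 0.20, where 38.4% of all tested clusters lay above 0 and the median was -0.29. With FPKM as deposited, 10 lay above and 18 below, with a median of -0.11. With an equal total it was 8 above and 20 below (median -0.28), with an equal total outside the members 9 and 19 (median -0.21), rescaled by the members 11 and 17 (median -0.10), and with quantile normalization 11 and 17 (median -0.35). Single libraries moved it as far: without adult replicate 1, 1 lay above and 27 below (median -1.04), and without adult replicate 2, 25 above and 2 below (median 1.52). Without nymph replicate 2 the split was 7 above and 20 below, with a median of -0.18, and without nymph replicate 3 it was 24 above and 3 below, with a median of 0.47.

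Nuclear genes that serve the mitochondrial genome did not pass it either. Of 32 clusters for mitochondrial transcription, RNA processing and DNA maintenance, 25 were tested and 0 passed limma's threshold in either direction, with 5 above 0, 20 below and a median of -0.56. Over all tested clusters, 0.234% passed, 38.4% lay above 0 and the median was -0.29, so the whole table leaned the same way. The cluster with the highest mean was Cluster-9520.6200, matching dimethyladenosine transferase 1 (TFB1M), which in mammals methylates the small mitochondrial ribosomal RNA. It had 4.95, 23.15 and 36.9 FPKM in adult glands and 14.55, 20.56 and 15.34 FPKM in nymph glands (log2 fold change 0.25, limma adjusted p = 0.884). Next came Cluster-9520.3554, matching the pentatricopeptide repeat protein PTCD2, which in mice is needed for processing of the CYTB message. It had 0.4, 5.96 and 14.31 FPKM in adult glands and 4.14, 22.76 and 10.13 FPKM in nymph glands (log2 fold change -1.05, limma adjusted p = 0.738).

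Of the 76 clusters for nuclear-encoded subunits of NADH dehydrogenase, cytochrome bc1, cytochrome c oxidase and the ATP synthase, 69 were tested and 0 passed in either direction, with 20 above 0, 49 below and a median of -0.27, close to that of all tested clusters. Cluster-9520.4533, matching subunit c of the ATP synthase ring, had 89.6, 380.3 and 525 FPKM in adult glands and 319.9, 529.6 and 434 FPKM in nymph glands (log2 fold change -0.37, limma adjusted p = 0.842). Cluster-9520.4828, matching the catalytic beta subunit, had 26.6, 249 and 216.5 FPKM in adult glands and 215, 389.6 and 249 FPKM in nymph glands (log2 fold change -0.97, limma adjusted p = 0.626). In FPKM as deposited, both were lowest in adult replicate 1. That library had the smallest rescaling factor, 0.2835, so low values there were common to many clusters. The marker lists held 0 calls at the adjusted threshold, with medians of 0.45 over 88 tested venom gland clusters, -0.82 over 27 muscle clusters, -1.29 over 4 fat body clusters, 0.07 over 7 nervous tissue clusters and -0.59 over 2 hemocyte clusters. At an unadjusted p under 0.05, however, limma passed 35 of the 88 venom gland, 10 of the 27 muscle and 3 of the 4 fat body clusters, and 0 of the nervous tissue and hemocyte clusters, beside 9.05% of all tested clusters. In the same fit, 1 of the 25 clusters of mitochondrial gene expression and 1 of the 69 nuclear-encoded respiratory clusters passed that level.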

How the data were processed

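The authors deposited FPKM per transcript cluster, with cluster lengths and the score of each best nucleotide match, without counts. The tools named in the submitters' processing notes, per the labels and without their roles, are HISAT2 2.0.5, fastp, CASAVA 1.8, DESeq2 1.20.0 and featureCounts 1.5.0-p3; per the labels' protocols, libraries came from total RNA and the NEBNext Ultra RNA kit. Whether poly(A) RNA was selected, whether counting used strand and which tool gave the FPKM are not given in the sources used here. Positions in the mitochondrial genome were not analysed here.

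Fragments were recovered from the FPKM steps: per library, a total, a length offset (from clusters with FPKM below 3 and lengths of 500 to 1100 bases) and a spread of that offset, 42 to 69 bases, were fitted so that low values came out whole. The recovered fragments sum to 99.8% to 100.1% of the fitted totals. In held-out clusters of 1100 to 1500 bases, whole numbers within 0.15 were reached by 99.4% to 99.8% of values, against 30.0% by chance. The steps were tested on simulated data.

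Stages were compared as adult minus nymph with limma 3.58.1 in R 4.3.3 (trend and robust) on log2(rescaled FPKM + 1), over clusters that reached an FPKM of 1 in 3 or more libraries, with Benjamini-Hochberg adjustment over all of them. Libraries were rescaled by median ratios over 4653 clusters above 0 in all 6, with factors of 0.2835, 1.643 and 1.559 in adult and 1.022, 1.361 and 0.9902 in nymph libraries. Fold changes on this scale understate those of low clusters. Shares and ratios were tested by exact permutation over 20 assignments (SciPy 1.17.1).

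Members, lists and tests were chosen with earlier results of these data known. Named in full are the leading cluster of each gene, the 5 with the highest mean FPKM, the largest rise and fall, and the 2 highest of each nuclear pathway list; further mitochondrial clusters are given as members. Alternatives were other pseudocounts, filters and scalings, limma without trend and robust, fragments per full length, members of at least 400 bases, a replicate block and each library left out. A share of fragments without Cluster-9520.4848, values without the 2 leading unnamed clusters and the fits with a spread were added after seeing the data.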

Additional observations from a re-analysis of the deposited data

How the results depend on the processing

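Across all 19 alternatives of the limma comparison, 0 mitochondrial clusters were called. The count over all tested clusters, 28 as reported, was 12 with a pseudocount of 0.1, 104 with no filter, 65 with a filter on mean FPKM, 72 with FPKM as deposited, 66 with an equal total outside the members, 4 when rescaled by the members and 47 with quantile normalization. It ran from 1 to 54 with single libraries left out: in replicate order 4, 1 and 54 when an adult library was absent, and 6, 9 and 9 when a nymph library was absent. Of the calls, 12 were higher and 16 lower in adult glands as reported, against 19 and 12 in fragments per full length. The split was 18 and 12 with the spread added, 53 and 51 with no filter, 33 and 32 with the mean filter, 3 and 1 when rescaled by the members and 7 and 5 with a pseudocount of 0.1.

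The difference in the mitochondrial share, adult minus nymph, was -5.49 points of FPKM, 5.64 points of fragments with an offset and 5.59 points with offset and spread. With single libraries left out it ran from -18.2 to 14.8 points. The cause was not tested. The number of gene classes whose share separated the stages was 1 and ran from 1 to 4 with single libraries left out, and for ratios to COX1 it was 1 and ran from 1 to 3; leaving out a library can only keep or raise such counts.

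Same-numbered libraries of the stages deviated together with correlations of 0.165, -0.0427 and 0.213 across clusters. Libraries with unlike numbers had correlations of -0.275 to 0.151. These values do not settle whether the numbers are pairs, and the reported tests did not take them as pairs. With a replicate block, limma called 29 clusters and 0 members. Of the ratios to COX1, 2 kept 1 direction in all 3 numbers (COX2 lower and ND2 higher in adult glands). Those of CYTB, ATP6, ND1, ND4, ND5 and the unnamed cluster did not. The smallest p that 3 numbers allow is 0.25, so this count cannot show a stage difference. The share of all tested clusters that kept 1 direction in this way was not computed. Counting intervals of the summed shares are at most 0.0498 points wide. Depth limits low clusters more, and 4927 to 18155 clusters per library reached an FPKM of 1. Clusters near 300 bases have the least certain fragment numbers.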

Other observations

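Beside the bug's own mitochondrial clusters, 18 clusters had as best nucleotide match a complete mitochondrial genome of another species. By far the highest was Cluster-9520.4468, of 352 bases, matching that of the moth Mythimna separata over nearly its whole length, with a score of 349. Its FPKM was 289247, 39573 and 412814 in the adult gland libraries, against 374268, 190527 and 308124 in the nymph gland libraries. As a ratio to the summed FPKM of the bug's mitochondrial clusters it was 0.110, 0.127 and 0.160 in adult glands and 0.179, 0.211 and 0.193 in nymph glands. The stages did not overlap, and 2.38% of all tested clusters were lower in adult glands in this way. That share is not a like baseline. The ratio of Cluster-9520.4468 varied only 1.92-fold between libraries, while for clusters in general it carries the swing of the members' total. The cluster was chosen after its values were seen and was not tested.

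A longer cluster matching the same moth, Cluster-10091.0 of 1510 bases with a score of 1492, did not keep step with it. Its FPKM was 1005, 16.95 and 856 in adult glands and 25.9, 350.2 and 697 in nymph glands, a 59.3-fold range, where Cluster-9520.4468 had a 10.4-fold range. The 9 clusters matching the mouse mitochondrial genome summed to 64.1, 17.1 and 11.6 FPKM in adult glands and 152, 0.65 and 0.05 FPKM in nymph glands, highest in nymph replicate 1.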
